A study of Mus musculus with 6 samples.

Results

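The digestive enzyme genes of the pancreatic acinar cell, together with genes of its secretory granules and 2 of its transcription factors, were followed in mouse embryonic pancreas in which BET proteins were inhibited. The 34 genes were chosen by name for their place in the exocrine pancreas, and 31 of them had a row named by the platform annotation among 24010 genes tested. Pnlip, Prss3 and Try5 were not analysed here. Dorsal pancreatic buds were dissected at stage E11.5 and cultured for 24 h in pools of 10, with I-BET151 at 500 nM, with JQ1 at 100 nM or, as the control (CTRL), with DMSO at 0.1%. RNA of each pool was hybridised to 1 Affymetrix whole-transcript array, with 2 arrays per group and 6 in all. The labels give no mouse strain and no genotype, and do not say whether pools came from separate litters or days. The p-values therefore speak for the spread of these pools, part of which may be technical.

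Acinar cells make, store and release the enzymes that digest protein, fat, starch and nucleic acid in the gut. Most proteases are made as inactive zymogens and packed into zymogen granules, whose release is triggered by cholecystokinin and nerves. In mouse the acinar programme is driven by the PTF1 complex, in which PTF1A and a common E-protein bind an E-box and RBPJ, later replaced by its pancreas-specific relative RBPJL, binds a neighbouring box. In the early mouse bud, Cpa1 and Ptf1a are expressed in the multipotent cells of the branch tips before these become acinar. Both I-BET151 and JQ1 occupy the bromodomains with which BET proteins bind acetylated histones.

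Upstream sequences were examined because the boxes of the acinar factors are known. RefSeq windows (build GRCm38.p6) matched 27 of the 31 genes by gene ID, in 28 windows, and the 250 bases before each annotated start were searched on both strands. The E-box CACCTG was present in 17 of 28 windows (60.7%), against 17.2% of all 32851 windows of that length. The box TTTCCC, which RBPJ and RBPJL recognise, was present in 10 windows (35.7%), against 21.9% of all windows. The NR5A2 site TCAAGGTCA was in 0 of the 28 and in 0.387% of all windows. No matches overlapped one another. Neighbouring family members share sequence, so these windows are not independent, and a match describes letters only.

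The 6 windows below belong to the 4 genes with a window that fell under JQ1 (Pnliprp1, Cel, Ctrb1 and Reg1), to Cela1, where both boxes lie side by side, and to Cpa1, the tip cell marker, which was not called. Capitals mark CACCTG or TTTCCC on either strand, and each runs 5′ to 3′ toward the gene. They lie at chr19:58728637-58728886 (plus strand, Pnliprp1), chr2:28563404-28563653 (minus, Cel), chr8:111691011-111691260 (minus, Ctrb1), chr6:78425733-78425982 (plus, Reg1), chr15:100687921-100688170 (minus, Cela1) and chr6:30638968-30639217 (plus, Cpa1).
Pnliprp1: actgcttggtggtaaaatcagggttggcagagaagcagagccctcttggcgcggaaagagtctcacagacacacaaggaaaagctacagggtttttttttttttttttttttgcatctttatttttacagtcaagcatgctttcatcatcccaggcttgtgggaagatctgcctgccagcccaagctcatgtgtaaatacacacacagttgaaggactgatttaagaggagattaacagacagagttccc
Cel: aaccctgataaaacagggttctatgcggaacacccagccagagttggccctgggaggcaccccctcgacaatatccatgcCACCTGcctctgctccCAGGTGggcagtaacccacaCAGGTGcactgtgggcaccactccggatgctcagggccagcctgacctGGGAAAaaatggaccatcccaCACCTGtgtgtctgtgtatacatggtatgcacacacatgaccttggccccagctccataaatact
Ctrb1: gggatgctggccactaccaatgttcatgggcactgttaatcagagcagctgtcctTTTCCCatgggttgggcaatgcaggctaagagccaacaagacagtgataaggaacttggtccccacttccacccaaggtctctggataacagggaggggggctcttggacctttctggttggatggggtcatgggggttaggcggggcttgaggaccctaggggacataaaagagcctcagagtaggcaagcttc
Reg1: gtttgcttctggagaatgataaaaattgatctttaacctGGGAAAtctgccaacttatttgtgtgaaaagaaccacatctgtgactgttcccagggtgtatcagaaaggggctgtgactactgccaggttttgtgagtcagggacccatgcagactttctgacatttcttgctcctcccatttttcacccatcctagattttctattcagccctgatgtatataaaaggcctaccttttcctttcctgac
Cela1: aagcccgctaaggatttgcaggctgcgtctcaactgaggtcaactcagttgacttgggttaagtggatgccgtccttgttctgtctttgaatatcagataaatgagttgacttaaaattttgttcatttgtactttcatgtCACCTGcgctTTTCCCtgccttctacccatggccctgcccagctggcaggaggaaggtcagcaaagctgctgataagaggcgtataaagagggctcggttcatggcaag
Cpa1: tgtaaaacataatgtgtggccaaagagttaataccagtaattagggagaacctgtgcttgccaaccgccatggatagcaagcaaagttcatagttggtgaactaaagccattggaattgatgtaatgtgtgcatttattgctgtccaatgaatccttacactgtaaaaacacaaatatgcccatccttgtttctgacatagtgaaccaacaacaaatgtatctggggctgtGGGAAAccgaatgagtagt
The Cel window held 4 E-boxes and 1 TTTCCC box, whereas the Pnliprp1 window held 0 of the 3 motifs. The Ctrb1 and Reg1 windows held a TTTCCC box and no E-box. Most windows with an E-box belonged to genes that were not called under JQ1. The same holds for windows in general, as 4 of the 27 genes with a window were called. A link between the boxes and the response was not tested. In Cela1 the E-box lay 109 to 104 bases and the TTTCCC box 99 to 94 bases before the start. Prss1, whose window is not shown, also held a neighbouring pair. There the TTTCCC box lay 106 to 101 bases and the E-box 96 to 91 bases before the start.

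Most of the genes gave little signal at this age. The array medians lay between 54 and 57, and 22 of the 31 genes had a control mean at or below the highest of them, from 8.5 for Reg2 to 51 for Ctrl. The other 9 were Cpa1, Ctrb1, Cela1, Pnliprp1, Clps, Rbpjl, Cel, Try4 and Cela2a. Intensities of different genes rest on different probes, so their order is one of signal and was not read as an order of RNA amounts. There are no detection calls, the lowest value on every array was 5, and values were rounded to whole numbers, which leaves coarse steps among dim rows.

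**Figure D1:**
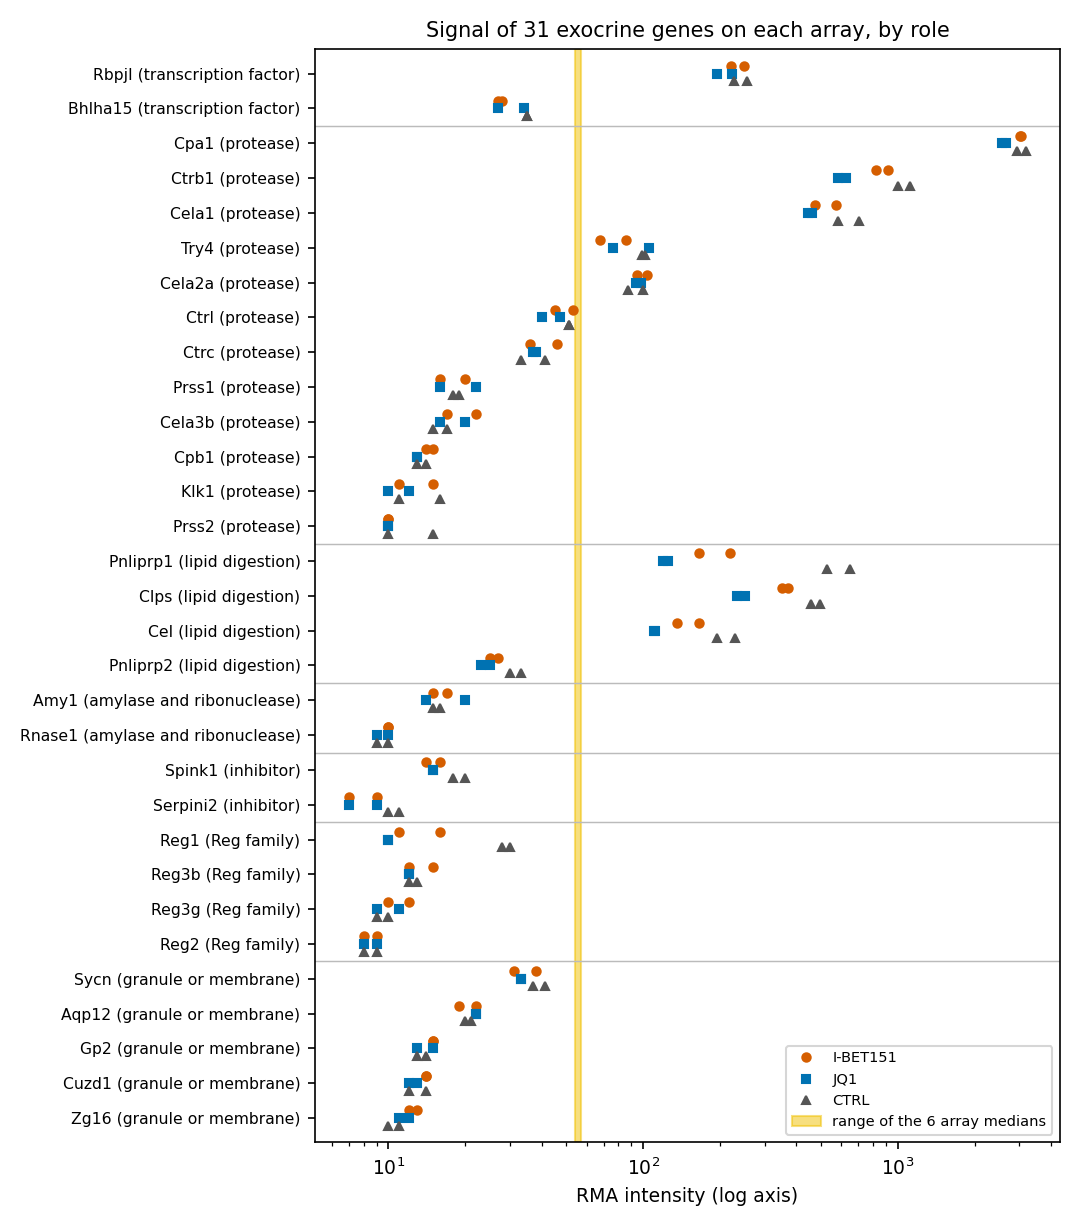
RMA intensity (log axis) of the 31 exocrine genes, grouped by role, with 2 points per group for the 2 arrays of I-BET151, JQ1 and CTRL. The band spans the 6 array medians, 54 to 57; 9 genes lie to its right, and amylase, ribonuclease, Reg and granule genes lie to its left.

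Under I-BET151, 1 of the 31 genes fell, Pnliprp1, against 0.87% of all genes, and 0 rose, against 0.262% of all genes (limma, adjusted p under 0.05 over all genes). Under JQ1, 5 fell, Pnliprp1, Clps, Cel, Ctrb1 and Reg1, against 2.67% of all genes, and 0 rose, against 1.13%. Each array carries RNA of pooled whole buds, so fewer cells of a type and less RNA per cell cannot be told apart. For the mean of both inhibitors, which uses the same controls, those 5 fell, against 3.33% of all genes, and 0 rose, against 1.59%. The median log2 change over the 31 genes was -0.05 under I-BET151 and -0.21 under JQ1, and over all genes 0.00 and 0.02. Among the 9 brighter genes the medians were -0.30 and -0.50, with 8 of 9 estimates below 0 in each comparison. Over all 12008 genes above the array median in controls the medians were -0.0005 and 0.0003, with 6015 and 5991 estimates below 0. Both I-BET151 arrays lay below both control arrays for 11 genes, as for 20.7% of all genes, and above them for 2, as for 21.5%. Both JQ1 arrays lay below both controls for 14 genes, as for 21% of all genes, and above them for 1, as for 23.9%.

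Of 4 measured genes of fat digestion, 1 fell under I-BET151, against 0.87% of all genes, and 3 fell under JQ1, against 2.67%. Pnliprp1 (Entrez 18946), a relative of pancreatic lipase with little known lipase activity of its own, had intensities of 165 and 219 under I-BET151, 125 and 120 under JQ1, and 528 and 648 in controls. All 4 treated arrays lay far below both controls, at 20.4% to 37.2% of the control mean. Pnliprp1 was 3.08-fold lower under I-BET151 (log2 change -1.62 ± 0.17, SE, limma adjusted p = 0.0449) and 4.78-fold lower under JQ1 (-2.26 ± 0.17, adjusted p = 0.0154).

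Clps (Entrez 109791) encodes colipase, the cofactor that anchors pancreatic lipase to bile-coated fat droplets. Its intensities were 350 and 369 under I-BET151, 251 and 234 under JQ1, and 456 and 494 in controls. The 3 groups did not overlap, with JQ1 lowest. Clps was 1.96-fold lower under JQ1 (log2 change -0.97 ± 0.08, limma adjusted p = 0.0154), and under I-BET151 its estimate was -0.40 ± 0.08, which was not called (adjusted p = 0.0986).

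Cel (Entrez 12613), the carboxyl ester lipase that is activated by bile salts, had intensities of 136 and 166 under I-BET151, 111 and 110 under JQ1, and 195 and 230 in controls. Again the 3 groups were separate, and the JQ1 arrays lay at 51.8% and 52.2% of the control mean. Cel was 1.92-fold lower under JQ1 (log2 change -0.94 ± 0.13, limma adjusted p = 0.0387), and its I-BET151 estimate of -0.50 ± 0.13 was not called (adjusted p = 0.160). Pnliprp2, a lipase active in suckling mice, was dim, at 25 and 27 under I-BET151, 23 and 25 under JQ1, and 30 and 33 in controls. Its groups did not overlap with the controls, but neither estimate was called (-0.28 ± 0.09 and -0.39 ± 0.09, limma adjusted p = 0.199 and 0.0868).

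Among 12 measured proteases, 0 fell under I-BET151, against 0.87% of all genes, and 1 fell under JQ1, against 2.67% of all genes. This was the chymotrypsinogen gene Ctrb1 (Entrez 66473). Its intensities were 821 and 915 under I-BET151, 583 and 625 under JQ1, and 1005 and 1115 in controls. The JQ1 arrays lay lowest, and the I-BET151 arrays between them and the controls. Ctrb1 was 1.75-fold lower under JQ1 (log2 change -0.81 ± 0.09, limma adjusted p = 0.0270), and under I-BET151 the estimate was -0.29 ± 0.09 (adjusted p = 0.208). Ctrl, a chymotrypsin-like enzyme, and Ctrc, chymotrypsin C, were dim and not called, with control means of 51 and 37. Of the measured proteases, only Cpa1, Ctrb1, Cela1, Try4 and Cela2a were above the array median in controls. All measured fat digestion genes but Pnliprp2 were above it, so the counts of these classes compare unlike signal levels.

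The elastase gene Cela1 had intensities of 472 and 570 under I-BET151, 442 and 462 under JQ1, and 582 and 703 in controls. All treated arrays were below both controls, but neither estimate was called (-0.30 ± 0.14 and -0.50 ± 0.14, limma adjusted p = 0.331 and 0.128). With genes below the median intensity left out of the fit, Cela1 was called under JQ1, as were 19.7% of the genes tested. Its relative Cela2a stood at 104 and 95 under I-BET151, 98 and 94 under JQ1, and 87 and 100 in controls, so that all groups overlapped. Cela3b lay between 15 and 22 on the 6 arrays.

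Cpa1 (Entrez 109697), carboxypeptidase A1, which trims the C-terminal ends of peptides, had intensities of 3046 and 3010 under I-BET151, 2665 and 2568 under JQ1, and 2925 and 3183 in controls. The I-BET151 arrays lay between the 2 controls and the JQ1 arrays below both, at 84.1% and 87.3% of the control mean. Neither estimate was called: -0.01 under I-BET151, with a 95% interval from -0.19 to 0.17, and -0.22 under JQ1, with an interval from -0.40 to -0.04 (limma adjusted p = 0.979 and 0.160). The JQ1 interval of Cpa1 did not overlap those of Pnliprp1 (-2.71 to -1.80), Clps (-1.17 to -0.77), Cel (-1.28 to -0.59) or Ctrb1 (-1.05 to -0.57). The intervals of Clps, Cel and Ctrb1 overlapped, so their order under JQ1 was not resolved.

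**Figure D2:**
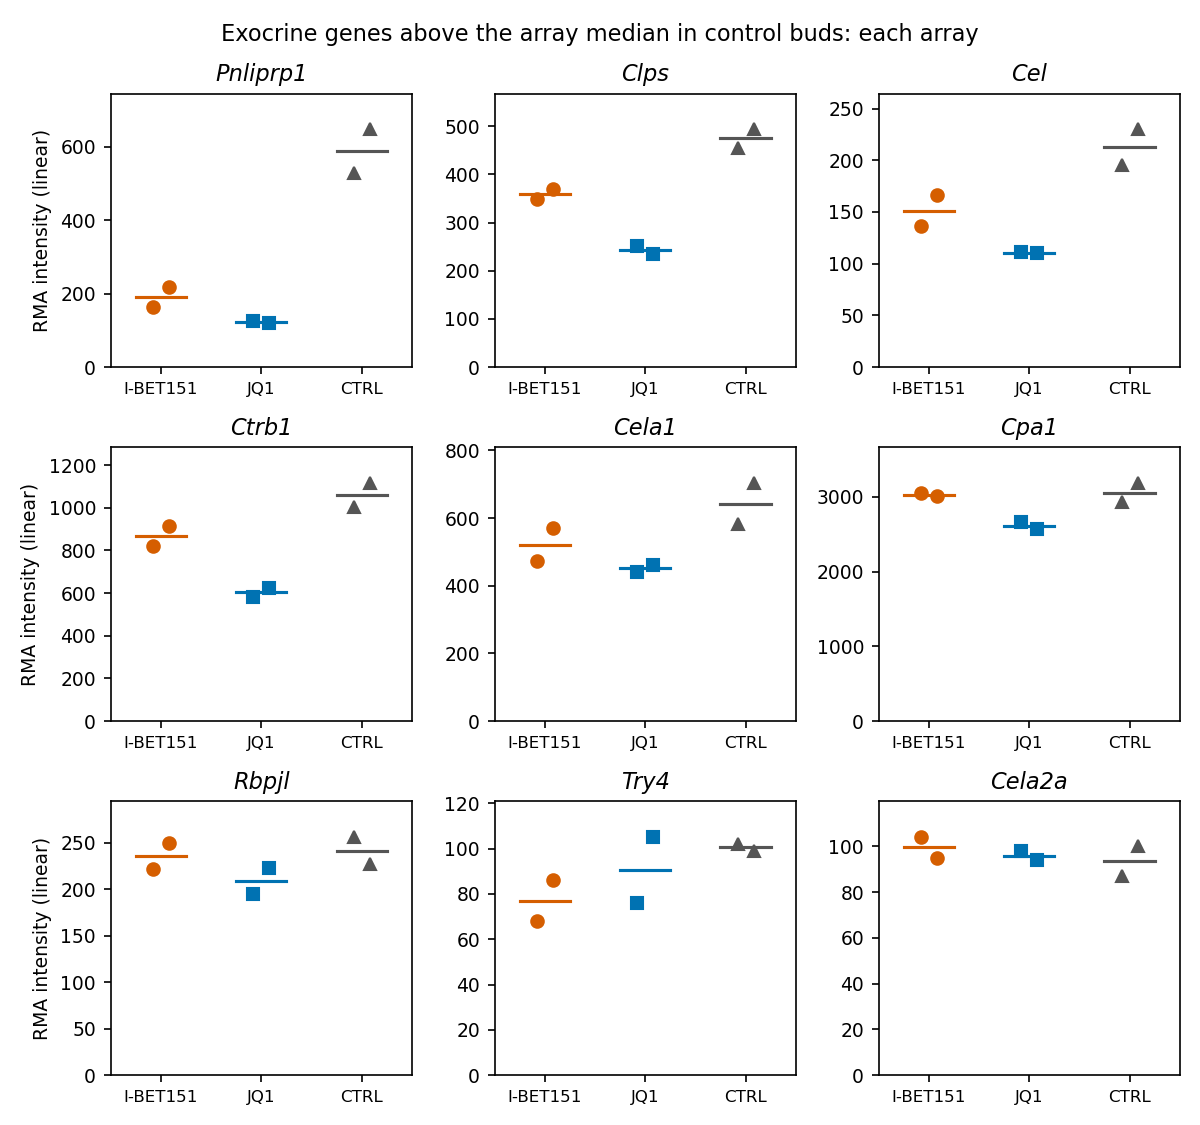
Linear RMA intensity on each array for the 9 exocrine genes above the array median in controls, with groups I-BET151, JQ1 and CTRL from left to right, a point per array and a bar at the mean of 2 arrays. Pnliprp1 drops to 120 to 219 on treated arrays, against 528 and 648 in controls, whereas Cpa1 stays between 2568 and 3183 on all 6.

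Of the trypsinogen genes, whose product activates the other zymogens, Try4 was above the array median in controls, and Prss1 and Prss2 gave little signal. Try4 stood at 68 and 86 under I-BET151, 76 and 105 under JQ1, and 102 and 99 in controls, and was not called. Prss1 lay between 16 and 22 and Prss2 between 10 and 15 on the 6 arrays. Trypsinogens are near-identical copies that array probes may not separate, so each of these rows may carry signal of its relatives. Cpb1, carboxypeptidase B1, and Klk1, tissue kallikrein, lay between 10 and 16.

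Amy1, the amylase gene expressed mainly in salivary gland and liver, lay between 14 and 20 and Rnase1, pancreatic ribonuclease, at 9 to 10, with no call. The trypsin inhibitor gene Spink1 had intensities of 14 and 16 under I-BET151, 15 and 15 under JQ1, and 18 and 20 in controls. Treated arrays were all lower, by steps of only a few units, and the estimate of -0.34 ± 0.10 in each comparison was not called (limma adjusted p = 0.168 and 0.136). The serpin gene Serpini2 lay between 7 and 11.

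Of the Reg genes, which encode small secreted lectin-like proteins induced in injured pancreas, 1 was called. Reg1 (Entrez 19692) had intensities of 11 and 16 under I-BET151, 10 and 10 under JQ1, and 30 and 28 in controls. The treated arrays lay below the 25th percentile of their arrays, which was 17 or 18. Reg1 fell under JQ1 (log2 estimate -1.54 ± 0.19, limma adjusted p = 0.0298), and its I-BET151 estimate of -1.13 ± 0.19 was not called (adjusted p = 0.0789). At such dim intensities the size of its change is not well determined, and with a pseudocount of 16 the JQ1 estimate was -0.79. Reg2, Reg3b and Reg3g lay between 8 and 15 on all arrays and were not called.

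The 5 genes of the granule and membrane, Sycn (syncollin), Zg16, Gp2, Cuzd1 and the aquaporin Aqp12, were dim. Of them 0 were called, against 1.13% of all genes under I-BET151 and 3.8% under JQ1. Sycn stood at 38 and 31 under I-BET151, 33 and 33 under JQ1, and 37 and 41 in controls, and the other 4 lay between 10 and 22. Zg16 was the only 1 of the 31 with its I-BET151 interval wholly above 0 (0.02 to 0.49), at 12 and 13 under I-BET151 against 10 and 11 in controls, a step of a few units (limma adjusted p = 0.234).

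**Figure D3:**
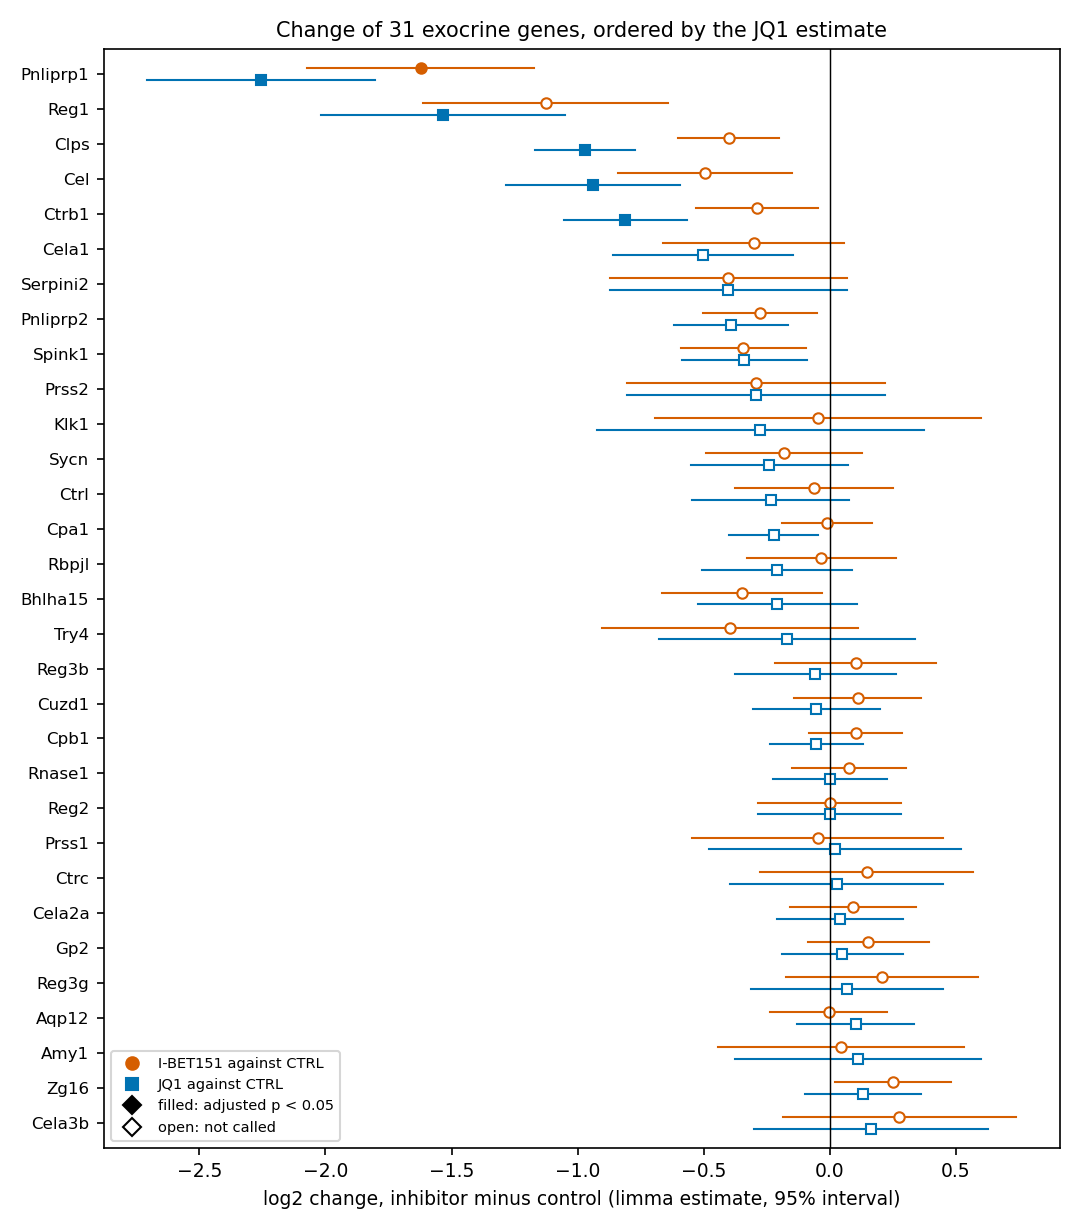
Log2 change of each of the 31 exocrine genes under I-BET151 (circles) and JQ1 (squares) against CTRL, with 95% intervals from limma, ordered by the JQ1 estimate; filled symbols have an adjusted p under 0.05. Pnliprp1, Reg1, Clps, Cel and Ctrb1 stand to the left, and the rest range from -0.50 to 0.16 under JQ1.

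The 2 transcription factor genes in the set were not called. Rbpjl had intensities of 222 and 250 under I-BET151, 195 and 223 under JQ1, and 256 and 227 in controls. The I-BET151 arrays overlapped with the controls and the JQ1 arrays lay just below them, with estimates of -0.03 (95% interval -0.33 to 0.26) and -0.21 (-0.51 to 0.09). Bhlha15 (MIST1), which builds the secretory apparatus of mature acinar cells, was dim, at 28 and 27 under I-BET151, 27 and 34 under JQ1, and 35 and 35 in controls. Neither estimate was called (-0.35 ± 0.12 and -0.21 ± 0.12, limma adjusted p = 0.232 and 0.410).

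Set directly against I-BET151, JQ1 gave lower values for several of these genes, at doses that differed between the compounds (100 nM and 500 nM). No gene of 24010 was called by limma between them (0% of all genes), nor in any of the 18 alternative fits, while 1610 genes (6.71%) had an unadjusted p under 0.05. Of the 31 exocrine genes, 5 had an unadjusted p under 0.05, all lower under JQ1 (Clps, Ctrb1, Pnliprp1, Cel and Cpa1), against 3.38% of all genes lower by that rule. Both JQ1 arrays lay below both I-BET151 arrays for 9 of the 31, against 13.9% of all genes, and above them for 0, against 14.6%.

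The log2 difference, JQ1 minus I-BET151, was -0.57 ± 0.08 for Clps (95% interval -0.77 to -0.37), -0.52 ± 0.09 for Ctrb1 (-0.77 to -0.28) and -0.63 ± 0.17 for Pnliprp1 (-1.08 to -0.18). These intervals are for single genes, and the limma adjusted p was 0.718 for each of the 3. For Cela2a the difference was -0.05, with an interval from -0.30 to 0.20.

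Regulators of the acinar programme were examined in a list of 21 measured genes. Ptf1a itself was near the array median, at 53 and 63 under I-BET151, 61 and 69 under JQ1, and 60 and 53 in controls. The I-BET151 arrays overlapped with the controls and the JQ1 arrays lay just above them, and the 95% intervals were -0.29 to 0.36 under I-BET151 and -0.13 to 0.53 under JQ1. Nr5a2, a nuclear receptor needed for acinar gene expression, had means of 505 ± 25.5 under I-BET151, 506 ± 4.24 under JQ1 and 604.5 ± 9.19 in controls (SD, n = 2 each), with log2 estimates of -0.26 in each comparison that were not called (limma adjusted p = 0.137 and 0.106).

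In this list 1 gene fell under I-BET151, Hnf4a, against 0.87% of all genes. Under JQ1, 2 fell, Hnf4a and Nr0b2, against 2.67% of all genes. In each comparison 0 rose, against 0.262% and 1.13% of all genes. The list medians were -0.07 and -0.04. Hnf4a, a nuclear receptor of endodermal epithelia and liver, had intensities of 141 and 132 under I-BET151, 120 and 127 under JQ1, and 276 and 286 in controls. Nr0b2, which encodes the corepressor SHP, stood at 56 and 59 under I-BET151, 54 and 50 under JQ1, and 102 and 82 in controls, and fell 1.76-fold under JQ1 (limma adjusted p = 0.0445). Myc fell for the mean of both inhibitors (log2 change -0.53, adjusted p = 0.0310). Gata4 and Pdx1 were not called.

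Of 20 measured other exocrine genes, 2 fell under I-BET151 (Cckar and Gatm), against 0.87% of all genes. Under JQ1, 3 fell (Cckar, Gatm and Nupr1), against 2.67% of all genes. In each comparison 0 rose, against 0.262% and 1.13% of all genes, and the list median was -0.04. Cckar, the receptor through which cholecystokinin triggers enzyme release in mouse acinar cells, had intensities of 50 and 66 under I-BET151, 31 and 37 under JQ1, and 321 and 398 in controls. Gatm, a creatine synthesis enzyme abundant in pancreas, had 57 and 64 under I-BET151, 48 and 50 under JQ1, and 104 and 120 in controls. Nupr1, a stress-induced chromatin protein, had 106 and 151 under I-BET151, 76 and 93 under JQ1, and 315 and 302 in controls. These 3 genes were lower on every treated array than on either control. Tmed6 fell for the mean of both inhibitors, at 9 to 10 on treated arrays against 13 and 14 in controls.

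The genes that carry enzymes through the cell were read beside the enzymes. Of 17 measured genes of regulated secretion (Rab, Vamp, syntaxin and others), 0 were called under I-BET151, under JQ1 or for the mean of both. Over all genes, 1.13%, 3.8% and 4.92% were called in these comparisons, so 0 of 17 does not set these genes apart. Their log2 changes ran from -0.35 to 0.25 under I-BET151 and from -0.26 to 0.14 under JQ1. Of 20 genes of ER folding and export, 0 were called under I-BET151, against 1.13% of all genes. Under JQ1, 1 of the 20 fell, where 2.67% of all genes fell. This was Herpud1, which helps remove misfolded proteins from the ER, at 442 and 497 under I-BET151, 469 and 487 under JQ1, and 683 and 689 in controls (limma adjusted p = 0.0436 under JQ1).

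**Figure D4:**
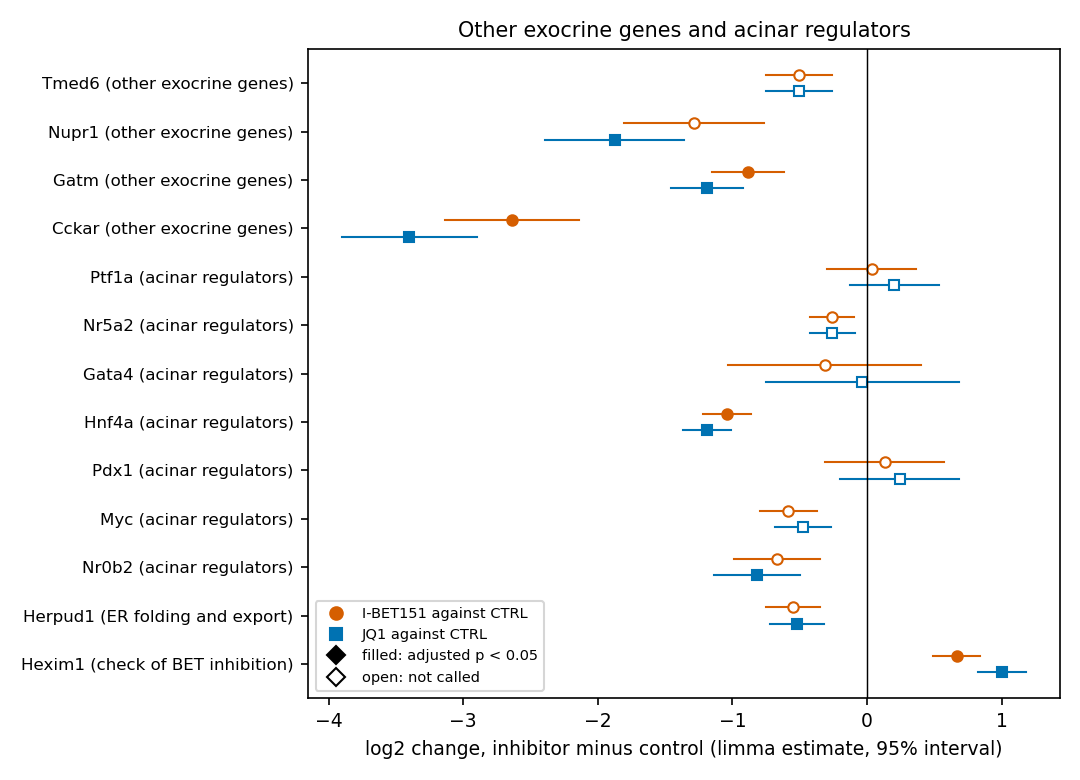
Log2 change under I-BET151 (circles) and JQ1 (squares) against CTRL, with 95% intervals from limma, for the other exocrine genes and acinar regulators that were called or stand on a short list of key genes, and for Herpud1 and Hexim1. Cckar lies farthest left, at -2.64 and -3.40, and Ptf1a and Pdx1 lie at or right of 0.

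Markers of the other cells of the bud were read beside these results. The summed intensity of 3 epithelial markers (Epcam, Cdh1 and Foxa2) was 2301 to 2327 under I-BET151, 2265 to 2530 under JQ1 and 2456 to 2485 in controls. Of these, 0 of 3 were called, against 1.13% of all genes under I-BET151 and 3.8% under JQ1. Of 6 measured duct and trunk markers, 2 fell under I-BET151 (Cldn3 and Anxa4), against 0.87% of all genes. Under JQ1, 3 fell (Cldn3, Anxa4 and Krt18), against 2.67% of all genes. Krt8, Krt19 and Sox9 were not called. Sox9, the brightest of the 6, had means of 1518.5 under I-BET151, 1534 under JQ1 and 1503 in controls. The sums of the 6 were 2776 to 2795 under I-BET151, 2598 to 2843 under JQ1 and 3458 to 3464 in controls. Of 5 endothelium markers, 1 fell under I-BET151 (Tek), against 0.87% of all genes. Under JQ1, 4 fell (Tek, Pecam1, Cdh5 and Emcn), against 2.67% of all genes. The sums of the 5 were 3373 to 3642 under I-BET151, 3140 to 3231 under JQ1 and 4692 to 4742 in controls. Of 6 measured endocrine markers, 1 rose under JQ1 (Neurod1), against 1.13% of all genes. Their sums were 6556 to 6849 under I-BET151, 6127 to 6683 under JQ1 and 6529 to 6703 in controls.

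Of 6 mesenchyme markers, 2 fell under I-BET151 (Postn and Dcn), against 0.87% of all genes. Under JQ1, 3 fell (Postn, Dcn and Prrx1), against 2.67% of all genes. Col1a1, Col3a1 and Vim were not called. Col3a1 had intensities of 830 and 765 under I-BET151, 706 and 769 under JQ1, and 803 and 767 in controls. Col1a1 had 1245 and 1119 under I-BET151, 1007 and 1125 under JQ1, and 1480 and 1531 in controls. Postn, which encodes the matrix protein periostin, had intensities of 124 and 148 under I-BET151, 115 and 104 under JQ1, and 489 and 550 in controls, 3.83-fold and 4.74-fold lower (limma adjusted p = 0.0306 and 0.0112). Dcn, which encodes the proteoglycan decorin, stood at 117 and 136 under I-BET151, 97 and 76 under JQ1, and 315 and 302 in controls, 2.45-fold and 3.59-fold lower (adjusted p = 0.0460 and 0.0154). The transcription factor gene Prrx1 stood at 82 and 91 under I-BET151, 76 and 65 under JQ1, and 139 and 175 in controls (adjusted p = 0.0861 and 0.0332). The mesenchyme sums, 8651 to 9202 under I-BET151, 8625 to 8748 under JQ1 and 10193 to 10509 in controls, were mostly Vim, at 6804 and 6392 under I-BET151, 6624 and 6609 under JQ1, and 6967 and 7184 in controls. A sum adds intensities of different probes, so its brightest gene weighs most.

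Liver markers differed between arrays of one group, and all 6 were higher on array 2 than on array 1 under both inhibitors. In controls, Alb, Afp, Apoa1 and Fgb were lower on array 2, and Ttr and Serpina1b were higher. Alb had intensities of 35 and 421 under I-BET151, 43 and 753 under JQ1, and 179 and 58 in controls, so that pools held unequal liver signal. The sum over 6 liver markers was 2776 to 4188 under I-BET151, 2804 to 4533 under JQ1 and 4534 to 4756 in controls. In this list 0 of 6 were called, against 1.13% of all genes under I-BET151 and 3.8% under JQ1. The brightest of them, Ttr, made up much of that sum, at 2056 and 2364 under I-BET151, 2073 and 2329 under JQ1, and 2328 and 2376 in controls. Serpina1b, at 476 and 805 under I-BET151, 485 and 668 under JQ1, and 1482 and 1494 in controls, was lower on each treated array than on either control (limma adjusted p = 0.130 and 0.0797). So was Fgb, at 83 and 123 under I-BET151, 74 and 144 under JQ1, and 306 and 273 in controls (adjusted p = 0.139 and 0.108). Of 6 gut and stomach markers 1 fell in each comparison, Vil1, against 0.87% and 2.67% of all genes. Their sums stayed between 182 and 203. The part of these other cells in the exocrine results was not tested, and Ins2, at 9 to 11, showed no clear signal.

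Hexim1, a gene that rises widely under BET inhibition, had intensities of 982 and 1053 under I-BET151, 1263 and 1304 under JQ1, and 625 and 656 in controls, and rose in both comparisons (limma adjusted p = 0.0432 and 0.0143). Among the 9 brighter exocrine genes, arrays of 1 group differed by up to 32.7% under I-BET151, 38.2% under JQ1 and 22.7% in controls. On the second array of the group, 7 of the 9 were higher under I-BET151, against 46.9% of all genes, 4 under JQ1, against 42.8%, and 7 in controls, against 45.8%. The calls rest on all 6 arrays: when I-BET151 1, I-BET151 2, JQ1 1, JQ1 2, CTRL 1 or CTRL 2 was dropped, 0 genes of 24010 were called each time. When the genes dimmer than the median gene were dropped too, Pnliprp1 was called in each of these 6 fits in both comparisons, and Clps, Cel and Ctrb1 in each of the 6 under JQ1. Those fits called 3.14% to 8.68% of all genes tested under I-BET151 and 7.92% to 18.4% under JQ1.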

How the data were processed

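RNA from 6 pools of cultured mouse pancreatic buds was measured on whole-transcript arrays, with each array's group and replicate number read from its title. The authors deposited linear intensities, rounded to whole numbers and normalized with RMA (version not given) per the submitters' processing notes. RMA equalises the arrays, so a change shared by most genes would not be seen. The sources used here do not say how probes were combined per gene. Of 24972 rows, 24014 had 1 gene symbol in the platform annotation, 0 had several and 958 were not listed and were not used here by name. For 4 rows that repeated a symbol the brighter row was kept. The log2 of the intensity, without pseudocount or filter, was fitted with limma 3.58.1 in R 4.3.3 (lmFit, contrasts.fit, eBayes) to all 6 arrays, with 3 residual and 1.76 prior degrees of freedom. P-values were adjusted by Benjamini-Hochberg over 24010 genes. Calls needed an adjusted p under 0.05, and the words rose and fell are kept for them. Intervals are 95% intervals for single genes. The fit was tested on simulated data. The genes, lists and tests were chosen with earlier results of these data known. All 31 measured genes are named, and genes of the other lists are named where called in a contrast or on a fixed list of 8. Some cell markers that were not called are named as well. Promoter windows came from RefSeq (GRCm38.p6). With 2 arrays per group, the number of arrays limits the precision. Alternatives were median centring, filters on dim genes, a pseudocount, a trended prior, a replicate block and leaving out each array.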

Additional observations from a re-analysis of the deposited data

How the results depend on the processing

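Over 18 alternative fits, the estimates of Pnliprp1, Clps, Cel, Ctrb1 and Reg1 kept their sign in both comparisons with control (Reg1 in the 10 fits that tested it). Pnliprp1 ranged from -1.83 to -1.42 under I-BET151 and from -2.40 to -2.11 under JQ1, and was called in 11 of 18 fits in each. After median centring of the arrays, 533 genes were called under I-BET151 (183 rose and 350 fell, against 63 and 209) and 1391 under JQ1 (664 and 727, against 272 and 640); 2 exocrine genes were then called under I-BET151, Reg1 being added. With genes below the median intensity left out, 1422, 2362 and 2675 genes were called under I-BET151, JQ1 and for the mean of both, and 3 of 9 exocrine genes under I-BET151 (Pnliprp1, Clps and Cel), against 11.8% of the genes tested. Without the dimmest 25% of genes the counts were 798, 1733 and 2045. With a pseudocount of 16 they were 661, 1615 and 1963, with 2 exocrine genes under I-BET151. With a trended prior, 446 and 1377 genes were called under I-BET151 and JQ1. The cause of these differences was not tested. The filters lowered the number of genes tested and also changed the prior degrees of freedom. These were 3.98 with genes below the median intensity left out, against 1.76 in the main fit.

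Without 1 array, 0 genes were called in any comparison. With genes below the median intensity dropped as well, these 6 fits called 377, 396, 409, 753 and 1042 genes under I-BET151 and 1001, 1084, 1752, 1849, 1918 and 2316 for the mean of both. The range over all of these fits was 0 to 1042 genes and 0 to 2 exocrine genes under I-BET151, 0 to 2205 and 0 to 5 under JQ1, and 0 to 2316 and 0 to 5 for the mean of both. In the 6 fits with 0 calls, 3596 to 4434 genes under I-BET151 and 4245 to 5363 under JQ1 had an unadjusted p under 0.05. A group left with 1 array is assumed to vary like the others. The groups share replicate numbers 1 and 2, and the labels do not say that a number marks a shared litter or day. The deviations of same-numbered arrays from their group means correlated at -0.02 to -0.04 across genes. A correlation over all genes cannot exclude a pairing that some genes carry, and liver markers were higher on array 2 of both inhibitors. The main fit has no block, and whether the numbers pair the samples was not settled. With the replicate block, 0 genes and 0 exocrine genes were called under I-BET151, JQ1 or for the mean of both, and 4054 and 4709 genes had an unadjusted p under 0.05 under I-BET151 and JQ1.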
